A study of Bos taurus with 12 samples.

Results

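The stretch of bovine chromosome 18 described here lies near 57 Mb, in sperm DNA of bulls (Bos taurus), and consists of 303 of the 7290 tiles in the authors' deposited table. Its tiles are those on chromosome 18 that start in a window of 500000 bp that opens at 57000000. A tile is a window of 500 bp for which the authors' deposited table gives one comparison of methylation between 6 low BFI and 6 high BFI samples. All samples are labelled as sperm cells of males. The labels do not spell out BFI, nor do they give breed, age or whether each sample is a different bull; the series title places the work in bull fertility. The assay was EM-seq, an enzymatic alternative to bisulfite sequencing: unmethylated cytosines are converted and read as T, and methylated ones stay C. Coordinates are those of the authors' deposited table, for which the submitters' processing notes name ARS-UCD1.2 (bosTau9).

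Each tile has a methylation difference, read as percentage points and called points below, with a p-value and a q-value. The sources used here do not give the direction of the subtraction, so a negative value cannot be assigned to either group and signs are given as deposited. Levels of single samples were not used here. Read depth is unknown, and the spread between bulls could not be computed. As a measure of the precision behind a tile, the standard error was computed that would give the deposited p in a two-sided normal test. This implied error concerns reads as the authors' test treated them, and the sources used here do not say if that test took the spread between bulls into account. The stretch was selected on these same deposited differences and q-values, so its values are a description and no test was made on them. Neighbouring tiles start 100 bp apart or more, and 262 of the 303 share bases with the tile before them, so that they are not separate measurements.

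In mammals DNA methylation of cytosines in CpG pairs is largely erased and rebuilt in the male germ line, and mature sperm carry a densely methylated genome with gaps mainly at CpG-rich promoters. The named genes of this stretch belong to families that grew by duplication. SIGLECs are cell-surface receptors, mostly of immune cells, that bind sialic acids, and CD33 is the member found on myeloid cells. Zinc finger genes of the C2H2 type encode DNA-binding proteins, many of which bind transposable elements. The distal part of bovine chromosome 18 is also known to cattle breeders for a locus affecting calving and gestation traits, reported near SIGLEC genes. Whether that locus coincides with these tiles was not tested.

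The main feature was a short interval with deep negative differences. In the authors' deposited table, 6 tiles had a q under 0.05 and a difference of at least 10 points, and all 6 were negative. They formed 2 regions within an interval of 57245101 to 57250600, both upstream of the unnamed gene ENSBTAG00000051816. These 6 tiles are 1.98% of the stretch, against 2.78% of all listed tiles in either direction and 2.63% in the negative direction, so the share of counted tiles was not above that of the whole table. At any difference, 159 tiles of the stretch (52.5%) had a q under 0.05, against 71.8% of all listed tiles. Of these 159 tiles, 135 were negative (84.9%, against 77.8% of all listed tiles with such a q) and 24 positive. As shares of every listed tile, 44.6% in the stretch and 55.9% in the whole table were negative with such a q, and 7.92% in the stretch and 15.9% in the whole table were positive with it. The median difference was -0.645 points in the stretch and -0.947 over all listed tiles.

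**Figure D1:**
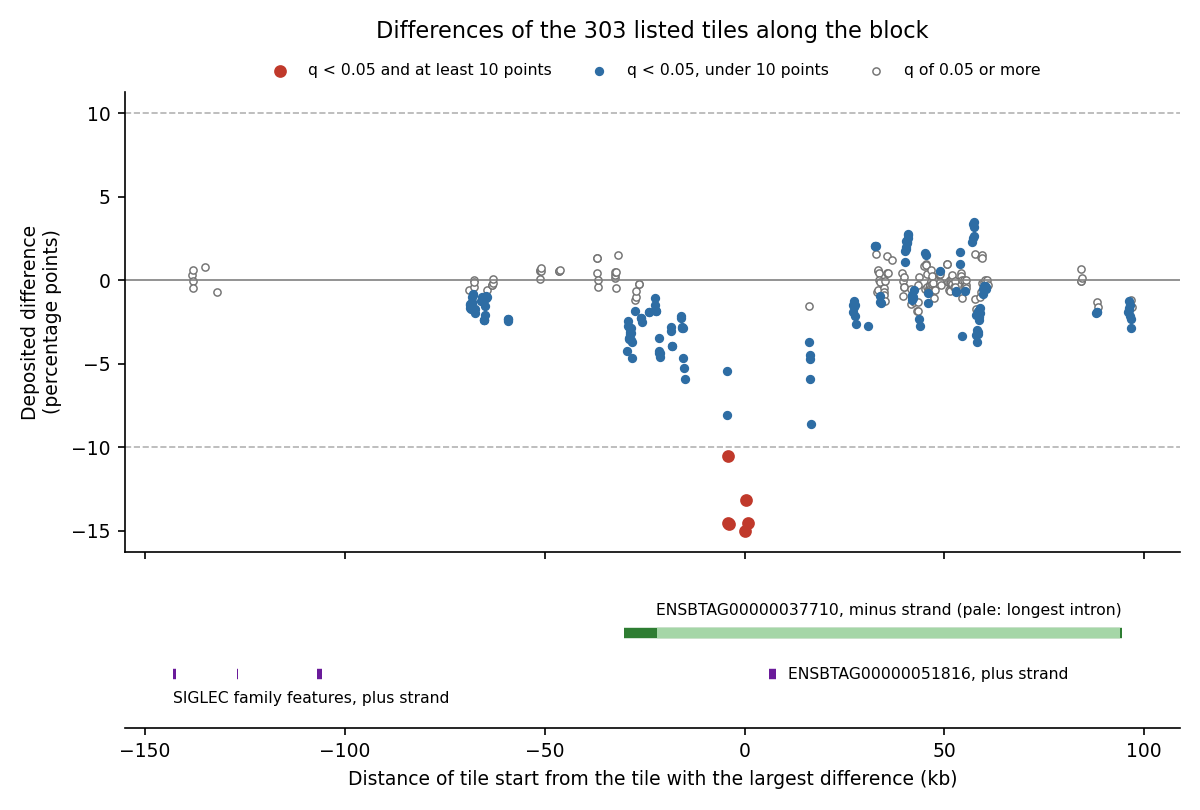
Deposited difference in percentage points (vertical axis) of each listed tile against the distance of its start, in kb, from the tile with the largest difference (horizontal axis), with the annotated genes below. Points are single tiles, coloured by the deposited q and size of the difference, and dashed lines mark 10 points. The 6 counted tiles lie within 6 kb of one another, between -10.5 and -15.0 points, and no tile reaches 5 points in the positive direction.

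The table names 5 closest genes for the 303 tiles. Most tiles, 176, were listed for ENSBTAG00000037710, described in the table as zinc finger protein 331, and 111 for ENSBTAG00000051816, which has no description. The other 16 belonged to 3 SIGLEC-family genes on the plus strand. All 5 are reported as uncertain, since members of such families can share reads and ENSBTAG00000051816 has no name. The name of ENSBTAG00000037710 is uncertain in a further way. Its NCBI number leads to LOC100336984 in RefSeq's table for ARS-UCD2.0, whereas that table gives the symbol ZNF331 to another gene on chromosome 18, with 98 protein-coding genes between the pair. ZNF331, which is imprinted in humans, therefore cannot be taken to be the gene measured here, and no tile of the authors' deposited table was listed for it. The gene is called the zinc finger gene below.

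The 2 main genes overlap. In the table the zinc finger gene runs on the minus strand over features from 57219131 to 57343755, and its longest intron extends from 57227360 to 57343280, which is 115921 bp. The coding sequences listed for ENSBTAG00000051816, from 57255398 to 57257102 on the plus strand, lie inside that intron. By the table's own edges, 204 of the 303 tiles, among them all 111 listed for ENSBTAG00000051816 and all 6 counted tiles, lay wholly within this intron. The authors' annotation nevertheless classed 102 of the 204 as distal intergenic and 82 as within a gene. Each tile carries 1 closest feature. The class of a tile here thus depends on which of 2 overlapping genes was taken. No tile of the stretch had a CpG island as closest feature, compared with 40.2% of all listed tiles. Of the 15 runs of at least 100 listed tiles in the series, 5 including this one had none.

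The strongest differences were in tiles whose closest gene was ENSBTAG00000051816. All 8 tiles upstream of its coding sequence were negative with a q under 0.05, and their median was -13.8 points. In the authors' deposited table the first 5 of these, whose starts step by 100 bp from 57244901 to 57245301, had differences of -5.46, -8.08, -10.5, -14.5 and -14.6 points. The size of the difference thus grew with each step towards the gene. The last of them, from 57245301 to 57245800, had the smallest q of the stretch (4.91e-61 in the authors' deposited table), an implied standard error of 0.868 points and a gap of 9598 bp to the coding sequence. At 57245101 to 57245600 lay the counted tile with the smallest difference, with -10.5 points and a q of 2.65e-23 in the authors' deposited table.

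The second region began 3500 bp further on and held 3 tiles classed as promoter. The tile from 57249301 to 57249800 had the largest difference of the stretch in the authors' deposited table, -15.0 points (q = 7.28e-31). It lay 5598 bp before the coding sequence. Its overlapping neighbour from 57249701 to 57250200 had -13.2 points (q = 1.79e-26), and the tile from 57250101 to 57250600 had -14.6 points (q = 1.02e-26), in the authors' deposited table. The first and the last of these 3 share no base and differed by less than their implied standard errors of 1.26 and 1.31 points. Over the 8 upstream tiles the implied error ran from 0.868 to 1.31 points, against a median of 0.592 over the stretch, so these tiles were among the less precisely measured ones. No listed tile overlapped the coding sequence of ENSBTAG00000051816 itself.

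Downstream of ENSBTAG00000051816, 103 tiles were listed and none was counted, against 2.78% of all listed tiles. Many of these 103 overlap, so the absence of counted tiles is not far from that share. The nearest 6, from 57265401 to 57266400, again changed along their length. Their differences in the authors' deposited table were -1.56, -3.69, -4.46, -4.70, -5.93 and -8.59 points, in order of position and away from the gene. The last of them, with a q of 1.59e-15 in the authors' deposited table, was the largest difference of the stretch that was not counted. At 57276401 to 57277600 a group of 8 tiles was negative throughout but small, from -2.60 to -1.27 points in the authors' deposited table, and every one had a q under 0.05. Their median implied error of 0.210 points was the lowest among groups of tiles joined where gaps were at most 1000 bp. Small differences therefore passed the q there. Inside the longest such group, the negative tiles from 57308801 to 57309800 had a lower median implied error, 0.144 points.

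**Figure D2:**
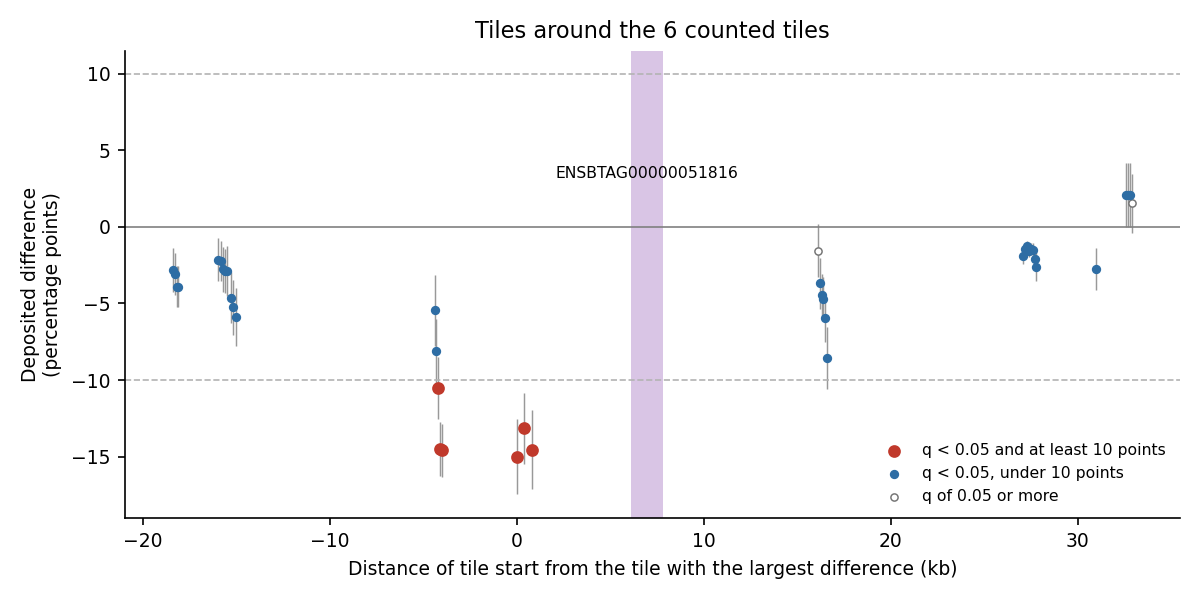
Deposited difference in percentage points (vertical axis) against distance in kb (horizontal axis) for the tiles around the 6 counted ones; bars are 95% intervals from the implied standard error and cover neither the spread between bulls nor any other error. The violet band marks the coding sequences listed for ENSBTAG00000051816, with the counted tiles before it. After it, a group of negative tiles falls to -8.59 points at the last listed tile of that group.

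The interval with the counted tiles lay within a longer stretch of one sign. From 57220001 to 57280800, a span of 60800 bp, all 69 listed tiles were negative in the authors' deposited table, and 63 of them had a q under 0.05. Their median was -2.88 points. Joined where gaps were at most 1000 bp, they made 9 groups, whose medians along the chromosome were -2.76, -1.89, -3.49, -2.88, -10.5, -14.6, -4.58, -1.54 and -2.76 points. The lowest medians were those of the fifth and sixth groups. The fifth group itself went from -5.46 to -14.6 points along its length. No tile was listed in the 10100 bp before it or in the 14800 bp after the sixth group. Any return towards smaller differences directly after the sixth group was therefore not observed. Among the other 14 runs of at least 100 listed tiles in the series, 7 held an unbroken series of more negative tiles, with 74 to 198 tiles, while in 2 of the 14 that series spanned more bp.

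Within the zinc finger gene, the 35 tiles on its 3′ exons, coding sequences and short introns (57220001 to 57231400) were all negative, and 30 had a q under 0.05. Their median was -2.74 points. Those starting at 57227801 or beyond also lay wholly within the longest intron of this gene. At the coding sequence near its 3′ end, the tile from 57221201 to 57221700 had -4.67 points with a q of 1.50e-08 in the authors' deposited table. In the intron next to it, the tile from 57222901 to 57223400 had -0.210 points with a q of 0.396 in the authors' deposited table. Both features also held other values in that table. The tile from 57221801 to 57222300 on the same coding sequence had -1.19 points (q = 0.148). In the same intron, the tile from 57223601 to 57224100 had -2.51 points (q = 0.00176). The differences thus did not separate coding sequence from intron here. The gene's smallest q, 1.95e-13 in the authors' deposited table, belonged to an intronic tile from 57228201 to 57228700 with -4.58 points.

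Promoter-classed tiles of the zinc finger gene lay in 2 places, and the annotation of its tiles names 2 transcripts, ENSBTAT00000057355 and ENSBTAT00000076428, of which the second extends further. At the inner coding sequence from 57230891 to 57230971, all 11 promoter-classed tiles were negative with a q under 0.05, and their median was -3.07 points. They included the largest difference of the gene, -5.89 points from 57234301 to 57234800 with a q of 5.08e-09 in the authors' deposited table, 3330 bp upstream of that sequence. Beyond the 5′ UTR of the longer transcript, all 10 tiles from 57345301 to 57346700 were negative and 8 had a q under 0.05. There the median was -1.73 points and the range ran from -2.87 to -1.18 in the authors' deposited table. Differences at the outer place thus had the same sign as at the inner one and a median closer to 0, with overlapping ranges.

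Beyond the 3′ end of the zinc finger gene the picture was mixed. Of 44 tiles from 57181401 to 57218200, 26 were negative and 17 of these had a q under 0.05. The nearest 19 tiles, from 57198001 to 57218200, were positive in 17 cases but small, between -0.444 and 1.50 points in the authors' deposited table, and none had a q under 0.05. The last of these, from 57217701 to 57218200, had 1.50 points (q = 0.106) in the authors' deposited table. The next listed tile, from 57220001 to 57220500 in the 3′ UTR, was the first of the negative span. It had -4.21 points (q = 3.56e-09) in the authors' deposited table. Between these tiles 1800 bp, which include the gene's annotated 3′ end, held no listed tile. Where the negative span began was therefore not observed.

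**Figure D3:**
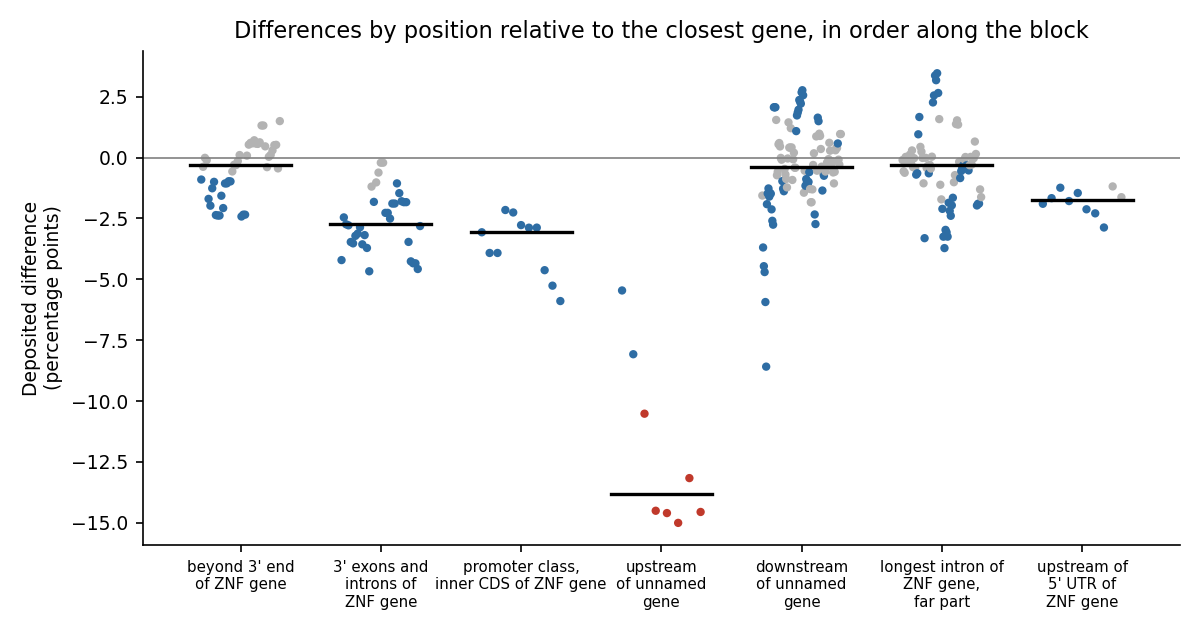
Deposited difference in percentage points (vertical axis) of the tiles closest to the zinc finger gene ENSBTAG00000037710 and to the unnamed gene ENSBTAG00000051816, in 7 positions ordered along the stretch (horizontal axis); red points are counted, blue points have a q under 0.05 and grey points do not, and black lines are medians. The 8 tiles upstream of the unnamed gene have a median of -13.8 points, and the medians of the other positions lie between -3.07 and -0.302.

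A dense patch with little difference held many of the tiles. From 57281901 to 57310600, 155 tiles (51.2%) had a median of -0.257 points. All 24 positive tiles with a q under 0.05 lay here, beside 35 negative ones. A positive group of 10 tiles, each with a q under 0.05, extended from 57289401 to 57290800 and reached 2.77 points at 57290201 to 57290700 with a q of 7.66e-05 in the authors' deposited table. It held the smallest q of a positive tile, 8.66e-07 at 1.73 points from 57289501 to 57290000 in the authors' deposited table. A second positive group held the largest positive difference, 3.47 points from 57306701 to 57307200 with a q of 2.34e-06 in the authors' deposited table. Only 700 bp further on, the tile from 57307401 to 57307900 had -3.72 points with a q of 8.02e-05 in the authors' deposited table. Between these tiles the sign turned inside one intron. The overlapping tiles where it turned had 1.58 (q = 0.0544) and -1.12 points (q = 0.195) in the authors' deposited table.

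The 3 SIGLEC-family genes lay at the low-coordinate end of the stretch. Of their 16 tiles 0 were counted, against 2.78% of all listed tiles, and so few tiles do not set these genes apart. For ENSBTAG00000049494, myeloid cell surface antigen CD33, 5 tiles 4108 to 7308 bp beyond its 3′ UTR had differences between -0.452 and 0.823 points in the authors' deposited table, with none under a q of 0.05. The single tile of ENSBTAG00000004608, a CD33 antigen-like gene, was classed as promoter and had -0.719 points with a q of 0.294 in the authors' deposited table. Implied errors of these 6 tiles were 1.02 to 1.26 points, so differences of about 1 point could not be distinguished from 0 there. ENSBTAG00000037537, sialic acid-binding Ig-like lectin 13, was closest to 10 tiles, all negative and 9 with a q under 0.05. They lay 36904 to 37804 bp beyond its 3′ UTR, and the largest had -1.73 points with a q of 1.71e-08 in the authors' deposited table from 57180801 to 57181300. Kallikrein, formyl peptide receptor and NLRP genes were closest to 0 tiles of the stretch and also to 0 of all listed tiles. Vomeronasal or olfactory receptor genes were closest to 0 tiles of the stretch and to 129 of all listed tiles. For a list of sperm genes, chosen by symbol or description, these numbers were 0 and 12.

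Listed tiles ended well inside the window used to define the stretch. The first, from 57111101 to 57111600, had 0.339 points (q = 0.399) and the last, from 57346201 to 57346700, had -1.63 points (q = 0.106) in the authors' deposited table. Outside the window the nearest listed tiles started at 56854901 and 57836501, with 0.746 (q = 0.0166) and 0.606 points (q = 0.161) in the authors' deposited table. Apart from the 6 tiles near the CD33 genes, all 297 others formed 1 run from 57180401 to 57346700 in which no gap exceeded 22800 bp. They fill 17.9% of the grid positions of that run, and the sources used here do not say how the authors chose the listed tiles. Joined in the same way, the 303 tiles made 23 loci of 500 to 21800 bp. In 13 loci every tile was negative, in 3 every tile was positive and 7 held both signs, while 2 loci held all the counted tiles.

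Compared with the other 14 runs of at least 100 listed tiles, the run at 57 Mb had the smallest share of tiles with a q under 0.05, 53.5% against 64.2% to 100% in the others. Its median of -0.692 points lay within the range of the other runs, -6.32 to 0.441. Counted tiles made up 2.02% of it, against 1.85% to 19.8% in the 7 other runs that had any. Its largest difference of -15.0 points in the authors' deposited table was nevertheless the fourth largest negative value among the 15 runs. On the rest of chromosome 18, 3 of 329 listed tiles were counted and the median was -0.859 points.

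**Figure D4:**
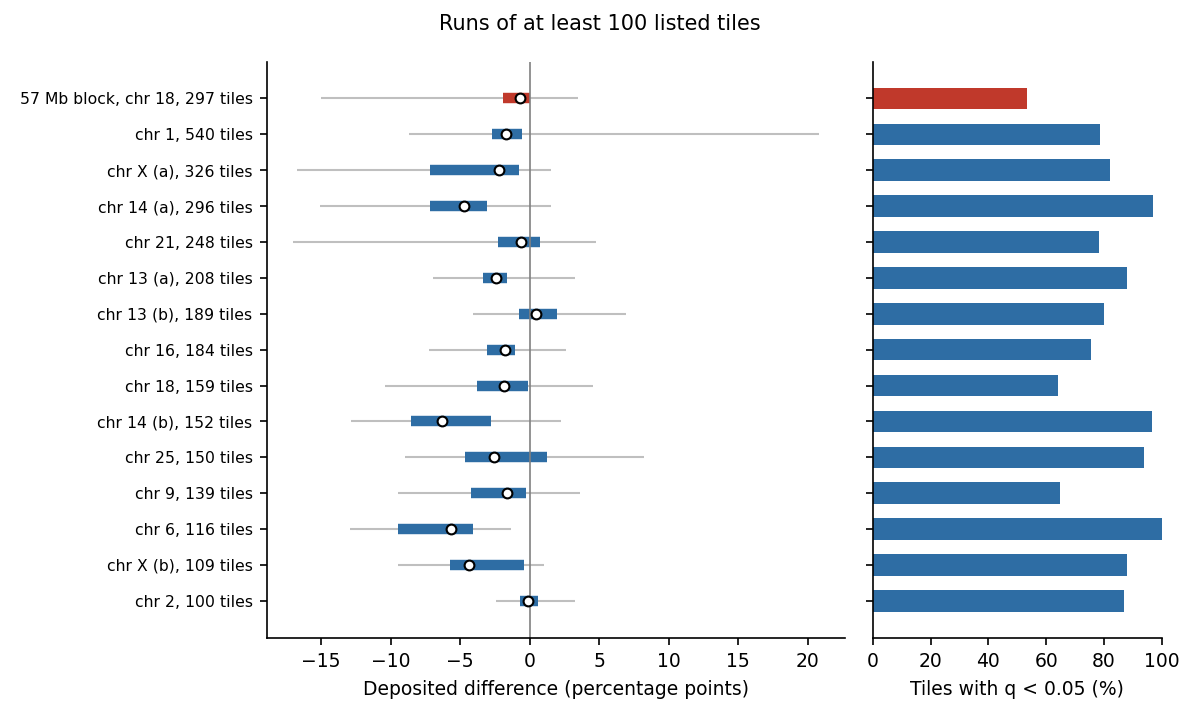
The 15 runs of at least 100 listed tiles, with the run at 57 Mb on chromosome 18 on top; the left panel shows the deposited difference in percentage points (white dot, median; thick bar, interquartile range; thin line, range), and the right panel the percentage of tiles with a q under 0.05. The run at 57 Mb combines a median of -0.692 and the lowest percentage, 53.5%, with a thin line reaching -15.0.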

How the data were processed

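Sperm DNA of 6 low BFI and 6 high BFI samples was compared by the authors. The tools methylKit, Bismark and Trimmomatic and the builds ARS-UCD1.2 and bosTau9 appear in the submitters' processing notes, without versions or settings. The deposited table holds, per the file headers, a p-value, a q-value, a methylation difference (read as percentage points) and the distance in bp to the closest annotated feature for each tile. In the stretch 161 deposited q-values lie below their p-values, and 6 tiles pass a q of 0.05 with a p of at least 0.05. No column belongs to a single sample, so no new test between groups was run and the depth is unknown.

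A tile was counted at q under 0.05 and at least 10 percentage points. Gaps are from tile edge to feature edge. Loci join tiles with gaps of at most 1000 bp, and runs join gaps of at most 50000 bp. The implied standard error is the absolute difference divided by the two-sided normal quantile of p. The table's 4 NCBI numbers in the stretch all matched the RefSeq table of ARS-UCD2.0, used for names and gene order only. Named were all closest genes, the largest tile of each, each counted region, the smallest q of each sign, and the tiles at thresholds and edges. Tiles that bound groups of one sign were added after seeing their values. The members, lists and thresholds were chosen with earlier results of these data known. Scripts were tested on simulated data. Tables were handled with pandas 2.3.3 in Python 3.11.15, quantiles came from SciPy 1.17.1, and plots from matplotlib 3.10.9.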

Additional observations from a re-analysis of the deposited data

How the results depend on the processing

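The 6 counted tiles became 12 at a minimum of 5 percentage points, 1 at 15, and 2 among 80 tiles that share no base; a q under 0.001, q-values recomputed by Benjamini-Hochberg over all listed p-values, and the whole run of listed tiles each gave 6. The 2 counted regions became 1 with gaps of up to 5000 bp joined, and the 23 loci became 38 with only overlapping or touching tiles joined and 9 with gaps of up to 5000 bp. The 159 tiles with a q under 0.05 became 146 with the q-values recomputed by Benjamini-Hochberg, and 40 among the 80 tiles that share no base. The negative share of 73.3% was 84.9% among tiles with a q under 0.05 and 100% among the 12 of at least 5 points. The median of -0.645 percentage points was -1.54 with 1 value per locus, where the dense patch counts as 2 values, and -0.611 without the 2 loci with a counted tile, which was added after seeing the data. No direction turned under these alternatives. Leaving out single samples was not run, because values per sample were not used here. No paired analysis was possible because the numbers in the sample titles differ between the groups and the table holds no columns per sample. The unknown depth and the unknown treatment of differences between bulls limit every value here.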

Other observations

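Elsewhere on chromosome 18, 6 further genes described as zinc finger proteins were closest to 14 listed tiles, leaving out a palmitoyltransferase of the zinc finger DHHC type with 2 tiles. Their differences in the authors' deposited table ran from -2.17 to 1.33 percentage points and 0 were counted, against 2.78% of all listed tiles. Among all listed tiles, 225 were closest to genes matched as zinc finger genes, that palmitoyltransferase and the zinc finger gene of the stretch included. Of these 225, 5 were counted. In the RefSeq order, SIGLECL1, IGLON5, VSIG10L, ETFB, CLDND2, NKG7, LIM2 and SIGLEC10 follow LOC100336984, and none of them was the closest gene of a listed tile on chromosome 18. Of the 262 tiles in the stretch that overlap the tile before them, 14 had exactly its difference and p-value. The median change between such neighbours was 0.320 percentage points and the largest 3.99, which lay inside the first counted region.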
